A study of Mus musculus with 24 samples.

Results

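The DNA replication genes described here are a list of 42 genes that license replication origins, unwind and copy DNA, supply its nucleotides, restore chromatin behind the fork or set the timing of entry into S phase. Each gene was read from 1 probe set, the one with the highest mean over the 24 arrays among those annotated to that gene alone. Of the 42 genes, 41 were measured, out of 18193 genes in all, and Chaf1a was not analysed here because the annotation used gave it no probe set of its own. RNA from mouse lung was hybridised to Affymetrix whole-genome mouse expression arrays, 1 per sample, and the tumours were visible nodules dissected from animals that carried a mutant EGFR transgene together with a further transgene and ate a doxycycline diet for 3 to 6 months. EGFR is the epidermal growth factor receptor, the L858R change makes its kinase active, and T790M, in the same domain, is best known for resistance to EGFR inhibitors.

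There were 4 L858R tumours (strain given as FVB mixed), 5 L858R+T790M tumours (FVB) and 5 T790M tumours (FVB). The normal lungs came from littermates with no transgene or with 1 of them, also on doxycycline, and comprised 5 labelled FVB mixed, called mixed-strain normals, and 5 labelled FVB, called FVB normals. The labels write the tumour genotypes with a leading C/ and do not spell out what drives the transgene, nor do they give age or sex. Strain goes with the tumour genotype, so L858R tumours were set against mixed-strain normals and the other tumours against FVB normals, which both of those comparisons share. Values are log2 expression, on which 1 unit is a 2-fold difference, and differences are given ± SE. A gene was called higher or lower at an adjusted p under 0.05 in limma with Benjamini-Hochberg adjustment over all 18193 genes, and every adjusted p below comes from that fit unless another is named. Whether each array stands for its own mouse is not stated, so a p-value here reflects the scatter among these samples, which may be technical, and a value from a whole nodule cannot tell more cycling cells from more RNA per cell.

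Before S phase, the origin recognition complex, Cdc6 and Cdt1 load the MCM2-7 helicase onto DNA. The helicase is then switched on by Cdc45 and the GINS complex, primase and the polymerases copy both strands, and a sliding clamp (PCNA) set in place by the RFC loader holds the polymerases on the template. Transcription of many of these genes is driven by E2F factors, which cyclin D and cyclin E kinases release from the retinoblastoma protein late in G1. In the adult lung few cells cycle, and these genes are commonly used as a readout of proliferation.

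The promoters were searched for the letters of the E2F motif. RefSeq promoters, from 250 bases before to 50 after the start of transcription on GRCm38.p6, were given for 34 of the 41 measured genes, 41 promoters in all. An E2F motif, searched as TTTCCCGC, TTTGGCGC, TTTCGCGC or TTTGCCGC on both strands, occurred in 13 of the 41 promoters (31.7%), against 2.26% of 32851 mouse promoters. The genes that hold it are Orc1, Cdc6, Cdt1, Mcm3, Mcm5, Mcm6, Mcm7, Pola1, Pold1, Rfc3, Lig1, Uhrf1 and Dnmt1. A CCAAT box, the NF-Y motif, occurred in 56.1% of the replication promoters and 37.4% of all, and TTTGAA, the core of the cell cycle homology region found in many mitotic promoters, in 9.76% and 17.9%. Printed here, with the E2F motif in capitals, are the 4 genes with the largest T790M differences among those whose promoter holds a motif, and Rrm2, which has the third largest difference of all and no E2F motif in this window. Each sequence runs 5′ to 3′ along the gene. The Uhrf1 sequence is chr17:56304063-56304362 on the plus strand, with 1 motif whose first base is at position -185 from the start. That of Mcm6 is chr1:128359656-128359955 on the minus strand, with 3 motifs, 2 of which overlap. Cdc6 lies at chr11:98907901-98908200 (plus), Mcm5 at chr8:75109259-75109558 (plus), where 2 motifs overlap on opposite strands, and Rrm2 at chr12:24708004-24708303 (plus).
Uhrf1: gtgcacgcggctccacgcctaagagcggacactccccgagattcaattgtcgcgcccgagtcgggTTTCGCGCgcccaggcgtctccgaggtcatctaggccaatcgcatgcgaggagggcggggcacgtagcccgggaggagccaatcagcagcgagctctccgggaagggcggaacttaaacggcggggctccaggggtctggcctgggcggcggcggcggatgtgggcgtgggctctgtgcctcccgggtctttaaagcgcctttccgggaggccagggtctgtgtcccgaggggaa
Mcm6: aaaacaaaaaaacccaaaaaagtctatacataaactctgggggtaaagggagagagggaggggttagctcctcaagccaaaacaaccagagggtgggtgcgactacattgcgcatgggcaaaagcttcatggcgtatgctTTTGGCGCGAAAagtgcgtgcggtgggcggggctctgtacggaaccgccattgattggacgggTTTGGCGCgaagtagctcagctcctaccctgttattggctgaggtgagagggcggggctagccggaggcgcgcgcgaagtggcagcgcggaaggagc
Cdc6: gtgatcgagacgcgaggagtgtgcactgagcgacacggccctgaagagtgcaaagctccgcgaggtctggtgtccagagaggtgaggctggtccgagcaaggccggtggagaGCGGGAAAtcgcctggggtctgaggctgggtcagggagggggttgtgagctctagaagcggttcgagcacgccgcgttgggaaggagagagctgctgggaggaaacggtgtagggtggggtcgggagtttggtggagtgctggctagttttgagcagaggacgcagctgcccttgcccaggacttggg
Mcm5: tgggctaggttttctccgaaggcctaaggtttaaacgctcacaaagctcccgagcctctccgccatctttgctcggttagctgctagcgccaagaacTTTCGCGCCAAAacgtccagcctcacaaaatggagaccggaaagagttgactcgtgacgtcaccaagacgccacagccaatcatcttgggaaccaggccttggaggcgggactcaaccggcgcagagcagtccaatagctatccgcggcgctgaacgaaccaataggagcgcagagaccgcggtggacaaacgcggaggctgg
Rrm2: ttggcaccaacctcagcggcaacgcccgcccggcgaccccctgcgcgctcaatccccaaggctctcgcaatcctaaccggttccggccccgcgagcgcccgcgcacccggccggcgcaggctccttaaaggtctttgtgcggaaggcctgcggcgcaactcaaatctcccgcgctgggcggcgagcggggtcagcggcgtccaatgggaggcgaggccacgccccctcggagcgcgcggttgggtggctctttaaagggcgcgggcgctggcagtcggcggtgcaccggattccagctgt
Another RefSeq promoter of Uhrf1, upstream of the one shown, held no E2F motif. Among genes called higher in T790M tumours against FVB normals, 10 of 27 promoters held the motif (37.0%), and among those not called 3 of 14 (21.4%). This split rests on 1 probe set per gene. Of the genes not called, Orc1, Cdc45, Pola2, Fen1, Tyms, Chaf1b, E2f1 and Brca1 each had another probe set called higher in T790M tumours. A match of letters is a description and not a bound site.

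Many replication genes were higher in tumours than in normal lung, and the number called was largest in T790M tumours. In T790M tumours 29 of 41 were called higher and 0 lower, where 21.9% of all genes were called higher and 17.9% lower. The median log2 difference of the 41 was 0.75, against 0.00 over all genes. In L858R tumours 24 were called higher and 0 lower, where 23.3% of all genes were called higher and 18.1% lower, and the medians were 0.47 for the 41 and 0.05 for all genes. In L858R+T790M tumours 11 were called higher and 0 lower, against 20.2% of all genes called higher and 16.1% lower, with medians of 0.25 and 0.03. The 11 of 41 is a share close to the background for that genotype. At unadjusted p under 0.05 the counts were 32 in T790M, 26 in L858R and 16 in L858R+T790M tumours, and among these only Pola2 in L858R tumours was lower. Of all 18193 genes, 8613, 8884 and 8017 passed that threshold in the same order, in either direction.

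The tumour and normal arrays lay fully apart for 28 genes in T790M tumours (17.0% of all genes lay apart and higher), for 14 in L858R tumours (19.8%) and for 7 in L858R+T790M tumours (16.7%). L858R and T790M tumours were compared with different normal lungs. They shared 23 called genes, 95.8% of the L858R calls and 79.3% of the T790M calls. Over all genes, 4235 were called higher in L858R and 3978 in T790M tumours, with 2758 (15.2% of all genes) called in both. Brca1 was called in L858R tumours and not in T790M tumours. Gins4, Lig1, Mcm3, Mcm4, Pcna and Pola1 were called in T790M tumours and not in L858R tumours. These calls use 1 probe set per gene. Another probe set was called higher for Brca1 in T790M tumours, and for Mcm3 in L858R tumours. In a direct test of L858R against T790M tumours, each relative to its normals, none of these 7 genes was called (lowest adjusted p = 0.329, for Lig1).

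**Figure D1:**
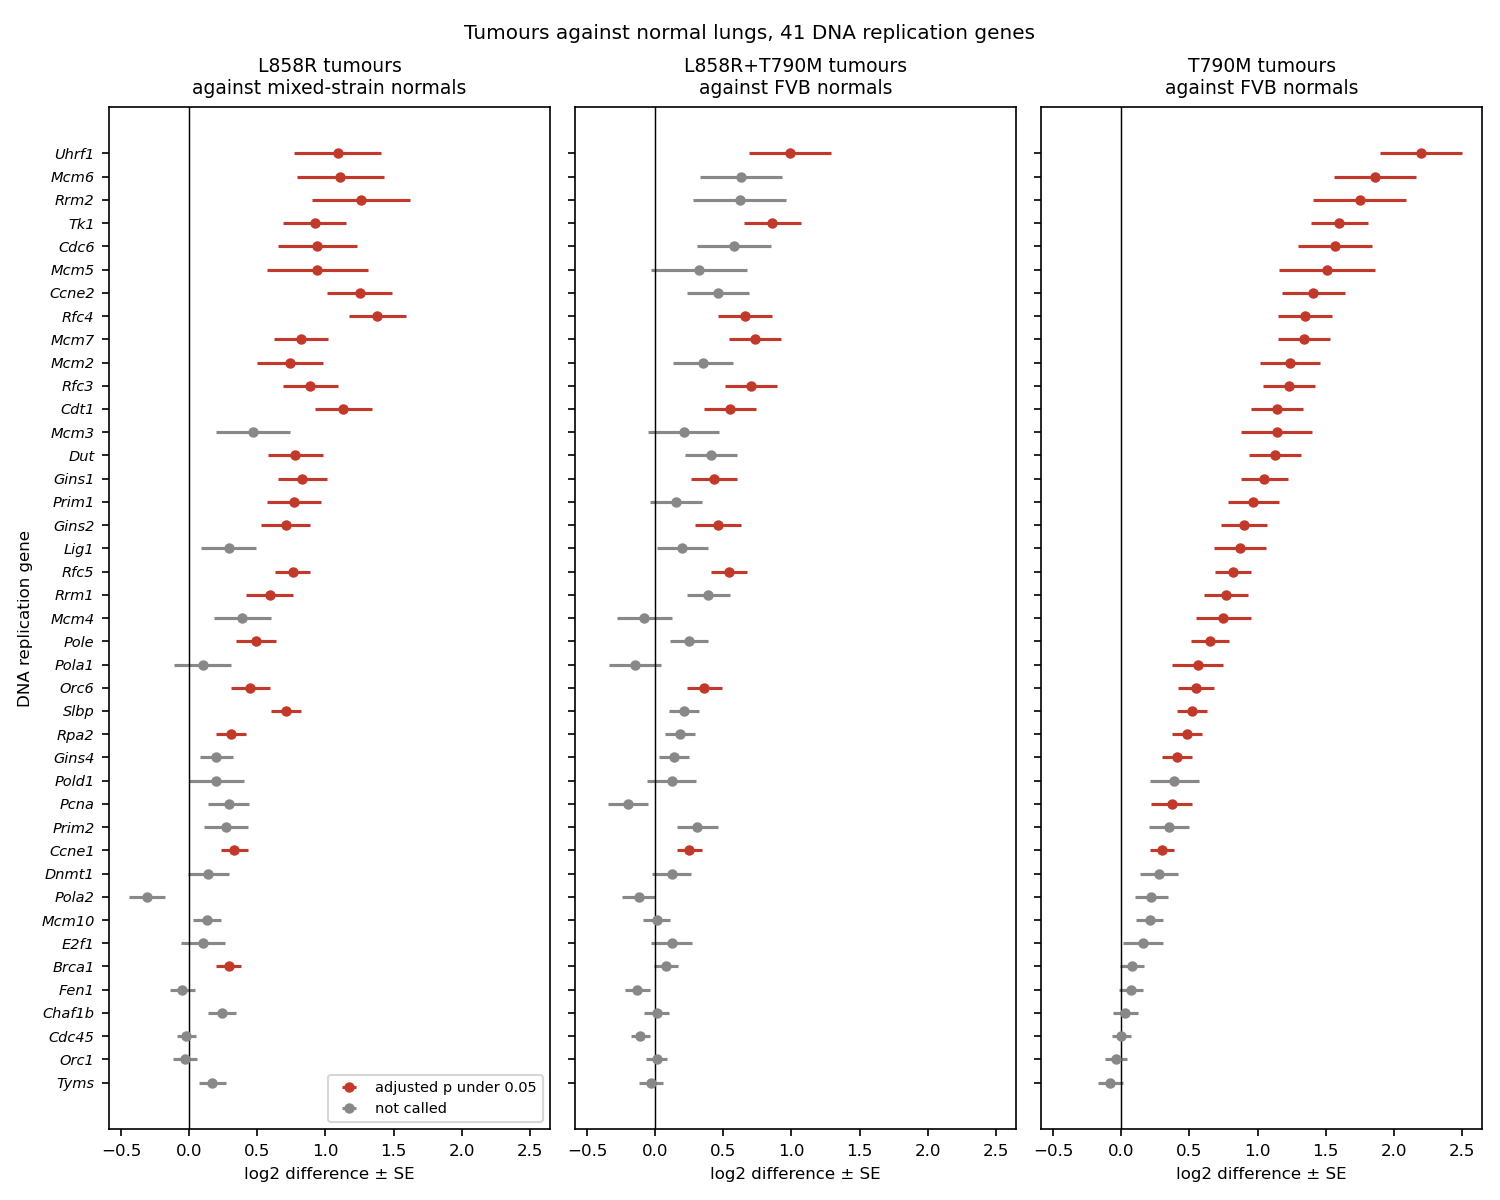
Log2 difference ± SE of the 41 replication genes (rows, ordered by the T790M difference) in L858R, L858R+T790M and T790M tumours against the normal lungs with the same strain label. Red points passed an adjusted p of 0.05 (24, 11 and 29 genes), and the T790M values run from -0.08 for Tyms to 2.20 for Uhrf1.

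Origin recognition and licensing was represented by Orc1 and Orc6, subunits of the origin recognition complex, and by the helicase loaders Cdc6 and Cdt1. Of these 4 genes, 3 rose in T790M tumours, the same 3 in L858R tumours, and 2 in L858R+T790M tumours. Cdt1 read 9.31, 10.12, 9.96 and 9.19 in L858R tumours, against 8.49, 8.43, 8.47, 8.58 and 8.61 in mixed-strain normals. In the FVB animals it read 9.22, 8.97, 9.51, 9.65 and 9.27 in L858R+T790M tumours and 9.98, 9.85, 9.32, 10.67 and 9.78 in T790M tumours, against 8.62, 8.71, 8.84, 8.79 and 8.92 in FVB normals. Every tumour lay above every normal lung of its strain. The differences were 1.13 ± 0.21, 0.55 ± 0.19 and 1.14 ± 0.19 for L858R, L858R+T790M and T790M tumours (adjusted p = 0.000138, 0.0305 and 7.8e-05).

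Cdc6 read 6.65, 7.43, 7.41 and 5.67 in L858R tumours, against 5.67, 5.95, 6.01, 5.92 and 5.68 in mixed-strain normals. It read 6.34, 5.72, 6.65, 6.95 and 5.98 in L858R+T790M tumours and 7.57, 6.80, 6.89, 7.76 and 7.55 in T790M tumours, against 5.74, 5.51, 5.91, 5.86 and 5.71 in FVB normals. All T790M tumours lay far above the normal lungs, while L858R replicate 4 and L858R+T790M replicate 2 lay within their range. Cdc6 rose by 1.57 ± 0.27 in T790M tumours (adjusted p = 0.000108) and by 0.94 ± 0.29 in L858R tumours (adjusted p = 0.012), and differed by 0.58 ± 0.27 in L858R+T790M tumours, which was not called (adjusted p = 0.105). Orc6 rose in L858R (0.45 ± 0.14), L858R+T790M (0.36 ± 0.13) and T790M tumours (0.55 ± 0.13). The brightest Orc1 probe set was flat, with 8.49, 8.81, 8.77, 8.76 and 8.93 in T790M tumours, against 8.80, 8.73, 8.77, 8.86 and 8.80 in FVB normals (-0.04 ± 0.08). It read 8.51, 8.61, 8.62 and 8.79 in L858R tumours, against 8.84, 8.52, 8.82, 8.48 and 8.67 in mixed-strain normals (-0.03 ± 0.09), and the groups overlapped in both strains.

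All 6 subunits of the MCM2-7 helicase, the ring that unwinds DNA, rose in T790M tumours, and no T790M array overlapped an FVB normal for any of them. In L858R tumours 4 of 6 rose (Mcm2, Mcm5, Mcm6 and Mcm7), and in L858R+T790M tumours Mcm7 alone was called. Mcm6 had 9.86, 9.62, 9.15, 10.20 and 9.86 in T790M tumours and 8.51, 7.77, 8.92, 9.23 and 8.12 in L858R+T790M tumours, against 7.60, 7.57, 8.12, 8.10 and 8.0 in FVB normals. In L858R tumours it had 9.06, 9.89, 9.63 and 8.36, against 7.36, 7.96, 8.46, 8.76 and 8.10 in mixed-strain normals. Every T790M tumour lay above every normal lung, both other tumour groups overlapped the normal lungs at their low end, and both reached into the T790M range at their high end. Mcm6 rose 3.63-fold in T790M tumours (1.86 ± 0.30, adjusted p = 4.71e-05) and 2.15-fold in L858R tumours (1.11 ± 0.32, adjusted p = 0.00758), with 0.63 ± 0.30 in L858R+T790M tumours (adjusted p = 0.107).

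Mcm7 was the subunit called in all genotypes. It had 10.81, 11.28, 11.46 and 10.35 in L858R tumours, against 9.94, 10.22, 10.01, 10.33 and 10.27 in mixed-strain normals. In FVB animals it had 10.62, 10.82, 11.02, 11.16 and 10.30 in L858R+T790M tumours and 11.31, 11.25, 11.11, 11.92 and 11.35 in T790M tumours, against 9.83, 9.93, 10.22, 10.16 and 10.12 in FVB normals. The lowest tumour of each group still lay above the highest normal lung of its strain, and the differences were 0.82 ± 0.20, 0.73 ± 0.19 and 1.34 ± 0.19 (adjusted p = 0.00201, 0.00363 and 1.02e-05).

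Mcm5 spread widely within tumour groups. It had 9.17, 10.04, 10.06 and 7.84 in L858R tumours, against 8.09, 8.38, 8.13, 8.64 and 8.43 in mixed-strain normals, a difference of 0.94 ± 0.37 whose adjusted p was 0.0451. It had 8.66, 7.66, 9.35, 9.36 and 8.49 in L858R+T790M tumours and 10.09, 9.40, 9.49, 10.50 and 9.98 in T790M tumours, against 8.04, 8.25, 8.65, 8.52 and 8.45 in FVB normals. L858R replicate 4 and L858R+T790M replicate 2 read below every matching normal lung. The Mcm5 difference was 1.51 ± 0.35 in T790M tumours (adjusted p = 0.00148) and 0.32 ± 0.35 in L858R+T790M tumours (adjusted p = 0.518).

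L858R replicate 4 was also the lowest tumour of its group for Mcm2, Mcm3 and Mcm4, and L858R+T790M replicate 2 for Mcm3 and Mcm4. Mcm2 gave 9.87, 10.75, 10.35 and 9.09 in L858R tumours, 9.58, 9.45, 9.77, 10.09 and 9.27 in L858R+T790M tumours and 10.32, 10.55, 10.12, 11.11 and 10.48 in T790M tumours. It gave 9.17, 9.25, 9.16, 9.39 and 9.39 in mixed-strain normals and 9.23, 9.22, 9.35, 9.46 and 9.14 in FVB normals. The rise was 1.24 ± 0.22 in T790M (adjusted p = 0.000143) and 0.74 ± 0.24 in L858R tumours (adjusted p = 0.0143). Mcm3 gave 9.15, 9.06, 8.71, 9.85 and 8.99 in T790M tumours and 8.31, 7.42, 8.53, 8.64 and 8.21 in L858R+T790M tumours, against 7.87, 7.92, 8.05, 8.10 and 8.10 in FVB normals, and rose by 1.14 ± 0.26 in T790M tumours (adjusted p = 0.00126). In L858R tumours it gave 8.54, 9.40, 9.09 and 7.63, against 8.05, 8.10, 8.16, 8.31 and 8.35 in mixed-strain normals, so that replicate 4 lay below all of them. In L858R tumours the Mcm3 difference of 0.47 ± 0.27 and the Mcm4 difference of 0.39 ± 0.21 were not called (adjusted p = 0.18 and 0.145). Mcm4 rose by 0.75 ± 0.20 in T790M tumours (adjusted p = 0.00451).

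Among the 5 genes for helicase activation, Gins1 and Gins2, subunits of the GINS complex, rose in all 3 genotypes, and Gins4 rose in T790M tumours. Gins1 differed by 0.83 ± 0.18 in L858R, 0.43 ± 0.17 in L858R+T790M and 1.05 ± 0.17 in T790M tumours, and Gins2 by 0.71 ± 0.18, 0.46 ± 0.17 and 0.90 ± 0.17 in the same order. Gins4 read 9.26, 9.29, 9.19, 9.93 and 9.33 in T790M tumours, against 8.94, 8.99, 9.05, 9.06 and 8.92 in FVB normals, with replicate 4 well above the other tumours, and rose by 0.41 ± 0.11 (adjusted p = 0.00645). In mixed-strain normals Gins4 read 8.94, 8.99, 8.93, 9.07 and 9.08, which overlapped the FVB normals. The brightest probe sets of Cdc45 and of Mcm10, a factor that helps start unwinding, were not called anywhere. Cdc45 had 7.88, 7.99, 7.81, 8.10 and 7.94 in T790M tumours, against 7.90, 7.96, 7.93, 7.89 and 8.04 in FVB normals, and 7.70, 7.88, 7.60 and 7.79 in L858R tumours, against 7.84, 7.79, 7.82, 7.64 and 7.73 in mixed-strain normals. Its values overlapped throughout, with differences of 0.00 and -0.02. Mcm10 had 7.77, 7.58, 7.84, 7.75 and 7.61 in L858R+T790M tumours and 7.89, 7.84, 7.68, 8.31 and 7.83 in T790M tumours, against 7.70, 7.77, 7.66, 7.78 and 7.60 in FVB normals, with T790M replicate 4 above the rest.

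Of the 6 genes for primase and the polymerases, 3 rose in T790M tumours (Prim1, Pola1 and Pole), 2 in L858R tumours (Prim1 and Pole) and 0 in L858R+T790M tumours. Prim1, the catalytic subunit of primase, read 8.74, 9.46, 9.27 and 8.35 in L858R tumours, against 8.15, 8.05, 8.17, 8.28 and 8.28 in mixed-strain normals. It read 8.36, 8.36, 8.72, 8.84 and 8.23 in L858R+T790M tumours and 9.19, 9.49, 8.76, 9.96 and 9.20 in T790M tumours, against 8.44, 8.34, 8.38, 8.44 and 8.15 in FVB normals. L858R and T790M tumours lay wholly above their normals, whereas 3 of 5 L858R+T790M tumours lay within theirs. The differences were 0.77 ± 0.20 (adjusted p = 0.00422), 0.15 ± 0.19 (adjusted p = 0.586) and 0.97 ± 0.19 (adjusted p = 0.000368).

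Pole, the catalytic subunit of the leading-strand polymerase, rose by 0.65 ± 0.14 in T790M and 0.49 ± 0.15 in L858R tumours. Pola1, which extends the RNA primer, rose by 0.56 ± 0.19 in T790M tumours (adjusted p = 0.0255) and stood at 0.10 ± 0.21 in L858R tumours. Pola2, the regulatory subunit of the same polymerase, read 8.28, 8.49, 8.52 and 8.10 in L858R tumours, against 8.51, 8.71, 8.62, 8.86 and 8.58 in mixed-strain normals. It read 8.19, 7.84, 8.35, 8.31 and 8.46 in L858R+T790M tumours and 8.41, 8.84, 8.40, 8.85 and 8.38 in T790M tumours, against 8.13, 8.27, 8.54, 8.46 and 8.36 in FVB normals. Its difference was -0.31 ± 0.13 in L858R tumours and 0.22 ± 0.12 in T790M tumours, and neither was called (adjusted p = 0.0663 and 0.163). Prim2 differed by 0.27 ± 0.16, 0.31 ± 0.15 and 0.35 ± 0.15 in L858R, L858R+T790M and T790M tumours, and Pold1 by 0.20 ± 0.20, 0.12 ± 0.18 and 0.39 ± 0.18, with no call. For Prim2 the L858R and the L858R+T790M tumours all lay above their normal lungs all the same.

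Rfc3, Rfc4 and Rfc5, 3 small subunits of the clamp loader, rose in all 3 genotypes, and for all 3 genes the lowest tumour of each genotype lay above every matching normal lung. Rfc4 had 8.41, 9.10, 8.19 and 8.06 in L858R tumours, against 6.95, 7.16, 6.92, 7.23 and 7.05 in mixed-strain normals. It had 7.72, 7.31, 7.50, 8.20 and 7.71 in L858R+T790M tumours and 7.92, 8.81, 8.02, 8.92 and 8.20 in T790M tumours, against 7.18, 7.03, 7.06, 6.95 and 6.91 in FVB normals. With 1.38 ± 0.21 (adjusted p = 1.95e-05), Rfc4 showed the largest difference of the 41 genes in L858R tumours. It rose by 0.66 ± 0.20 in L858R+T790M and 1.35 ± 0.20 in T790M tumours (adjusted p = 0.0113 and 1.71e-05).

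Rfc3 had 7.77, 8.54, 8.71 and 7.73 in L858R tumours, against 7.04, 7.21, 7.19, 7.40 and 7.67 in mixed-strain normals. It had 7.75, 7.98, 7.87, 8.49 and 7.52 in L858R+T790M tumours and 8.45, 8.31, 8.28, 8.68 and 8.55 in T790M tumours, against 7.08, 6.97, 7.46, 7.32 and 7.30 in FVB normals. The gap was narrowest in L858R+T790M replicate 5 and in L858R replicate 4. Rfc3 rose by 0.89 ± 0.20, 0.70 ± 0.19 and 1.23 ± 0.19 (adjusted p = 0.001, 0.0052 and 2.43e-05), and Rfc5 by 0.76 ± 0.13, 0.54 ± 0.13 and 0.82 ± 0.13. Rpa2, a subunit of the single-strand binding protein, rose by 0.31 ± 0.11 in L858R and 0.48 ± 0.11 in T790M tumours.

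Pcna is the clamp itself and a common proliferation marker. It had 12.13, 12.20, 12.03 and 11.50 in L858R tumours, against 11.51, 11.72, 11.53, 11.87 and 11.76 in mixed-strain normals. It had 11.60, 11.00, 11.69, 11.91 and 11.67 in L858R+T790M tumours and 12.13, 12.00, 11.92, 12.43 and 12.20 in T790M tumours, against 11.78, 11.57, 11.84, 11.91 and 11.75 in FVB normals. T790M tumours lay just above the normal lungs, and L858R+T790M replicate 2 far below them. The Pcna difference was 0.37 ± 0.15 in T790M tumours (adjusted p = 0.0498), 0.29 ± 0.15 in L858R tumours (adjusted p = 0.145) and -0.20 ± 0.15 in L858R+T790M tumours (adjusted p = 0.321). The T790M call was lost without any of 8 of the 10 arrays left out in turn (highest adjusted p = 0.136).

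At the joining of Okazaki fragments, Lig1, the ligase that seals them, read 9.43, 9.39, 9.11, 10.33 and 9.51 in T790M tumours and 8.86, 8.66, 9.15, 9.03 and 8.70 in L858R+T790M tumours, against 8.49, 8.62, 8.83, 8.83 and 8.64 in FVB normals. In L858R tumours it read 8.86, 9.64, 9.35 and 8.58, against 8.75, 8.83, 8.76, 8.95 and 8.78 in mixed-strain normals. The T790M tumours were all above the FVB normals, replicate 4 by the widest margin. Lig1 rose by 0.87 ± 0.19 in T790M tumours (adjusted p = 0.000775), and its differences of 0.29 ± 0.20 in L858R and 0.20 ± 0.19 in L858R+T790M tumours were not called. The brightest probe set of Fen1, the flap endonuclease of the same step, read 10.88, 10.94, 10.73, 11.03 and 10.89 in T790M tumours, against 10.84, 10.82, 10.83, 10.91 and 10.74 in FVB normals, a difference of 0.07 ± 0.09. It read 10.37, 10.94, 10.50 and 10.54 in L858R tumours, against 10.69, 10.60, 10.85, 10.48 and 10.57 in mixed-strain normals, and overlapped in both comparisons.

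Of the 5 genes of nucleotide supply, 4 rose in L858R and in T790M tumours (Rrm1, Rrm2, Tk1 and Dut), and Tk1 in L858R+T790M tumours. Rrm2, the small subunit of ribonucleotide reductase that is made in S phase, read 9.07, 9.83, 9.65 and 7.64 in L858R tumours, against 7.38, 7.87, 7.71, 8.23 and 7.73 in mixed-strain normals. It read 8.53, 7.27, 8.88, 8.92 and 8.12 in L858R+T790M tumours and 9.75, 9.12, 9.26, 9.72 and 9.56 in T790M tumours, against 7.78, 7.05, 8.02, 8.10 and 7.69 in FVB normals. L858R replicate 4 and L858R+T790M replicate 2 again lay inside the normal range, while all T790M tumours were at least 1 unit above it. Rrm2 rose 3.37-fold in T790M (1.75 ± 0.34, adjusted p = 0.0003) and 2.4-fold in L858R tumours (1.26 ± 0.36, adjusted p = 0.00727), with 0.62 ± 0.34 in L858R+T790M tumours (adjusted p = 0.171).

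Tk1, the cytosolic thymidine kinase, had 8.24, 9.29, 8.63 and 7.91 in L858R tumours, against 7.38, 7.30, 7.68, 7.86 and 7.75 in mixed-strain normals. It had 8.57, 8.47, 8.60, 8.53 and 7.94 in L858R+T790M tumours and 9.21, 8.94, 8.84, 9.42 and 9.38 in T790M tumours, against 7.31, 7.09, 7.99, 7.73 and 7.69 in FVB normals. The only tumour within the normal range was L858R+T790M replicate 5. Tk1 rose by 0.92 ± 0.23, 0.86 ± 0.21 and 1.60 ± 0.21 (adjusted p = 0.00222, 0.00284 and 6.14e-06). Dut, which removes dUTP, rose by 0.78 ± 0.20 in L858R and 1.13 ± 0.19 in T790M tumours, and Rrm1 by 0.59 ± 0.17 and 0.77 ± 0.16. Tyms, thymidylate synthase, was near the low end of the scale with 5.25, 5.44, 5.14, 5.16 and 5.01 in L858R+T790M tumours and 5.02, 5.16, 5.31, 5.34 and 4.91 in T790M tumours, against 5.29, 5.12, 5.30, 5.28 and 5.15 in FVB normals, and was not called (-0.03 ± 0.09 and -0.08 ± 0.09). In L858R tumours it gave 5.18, 5.17, 4.88 and 5.31, against 4.99, 4.88, 5.14, 4.78 and 5.04 in mixed-strain normals (0.17 ± 0.10).

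Of the genes that copy chromatin and its methylation, Uhrf1 moved most. UHRF1 binds hemimethylated DNA and brings DNMT1 to it. Uhrf1 read 7.21, 8.0, 7.98 and 6.10 in L858R tumours, against 5.70, 6.26, 6.26, 6.66 and 6.27 in mixed-strain normals. It read 7.29, 6.84, 7.32, 7.60 and 6.80 in L858R+T790M tumours and 8.29, 8.23, 7.73, 9.31 and 8.32 in T790M tumours, against 6.08, 5.77, 6.47, 6.36 and 6.21 in FVB normals. In FVB animals the 3 groups were fully separate, with T790M tumours highest, and among L858R tumours only replicate 4 lay in the normal range. The rise of 2.20 ± 0.30, or 4.59-fold, in T790M tumours was the largest of the 41 genes in that comparison (adjusted p = 9.02e-06). Uhrf1 also gave the largest difference in L858R+T790M tumours (0.99 ± 0.30, adjusted p = 0.0133) and rose by 1.09 ± 0.32 in L858R tumours (adjusted p = 0.00917).

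Dnmt1, the maintenance methyltransferase, was not called in any genotype. It read 9.46, 10.22, 9.81 and 9.15 in L858R tumours, against 9.33, 9.54, 9.60, 9.54 and 9.61 in mixed-strain normals. It read 9.53, 9.25, 9.62, 9.65 and 9.46 in L858R+T790M tumours and 9.80, 9.34, 9.58, 9.80 and 9.81 in T790M tumours, against 9.30, 9.36, 9.49, 9.45 and 9.33 in FVB normals. The groups overlapped in each comparison, with differences of 0.14 ± 0.15, 0.12 ± 0.14 and 0.28 ± 0.14 (adjusted p = 0.493, 0.568 and 0.12). Slbp, which binds the stem loop of histone mRNAs, read 10.34, 10.20, 10.22 and 9.71 in L858R tumours, against 9.33, 9.39, 9.26, 9.61 and 9.45 in mixed-strain normals, with no overlap, and rose by 0.71 ± 0.11 (adjusted p = 2.99e-05). It read 9.92, 9.74, 9.83, 9.99 and 9.87 in L858R+T790M tumours and 10.34, 9.97, 10.15, 10.05 and 10.36 in T790M tumours, against 9.58, 9.49, 9.64, 9.77 and 9.80 in FVB normals, and rose by 0.52 ± 0.11 in T790M tumours (adjusted p = 0.000496). In FVB animals only L858R+T790M replicate 2 lay within the normal range. The brightest probe set of Chaf1b, a subunit of the histone chaperone that assembles new nucleosomes, read 6.78, 6.96, 6.98, 6.71 and 6.72 in L858R+T790M tumours and 6.54, 7.01, 6.68, 7.02 and 7.0 in T790M tumours, against 6.82, 6.82, 6.83, 6.91 and 6.71 in FVB normals.

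G1/S control was represented by E2f1, an activating E2F factor, and by Ccne1 and Ccne2, the E cyclins. Ccne2 read 7.21, 7.78, 7.68 and 6.31 in L858R tumours, against 6.11, 5.94, 5.74, 6.25 and 5.93 in mixed-strain normals. It read 6.70, 6.17, 6.69, 7.23 and 6.57 in L858R+T790M tumours and 7.76, 7.12, 7.41, 7.89 and 7.93 in T790M tumours, against 6.13, 5.82, 6.44, 6.38 and 6.29 in FVB normals. L858R and T790M tumours lay above all their normals, and so did 4 of 5 L858R+T790M tumours, replicate 2 being the exception. Ccne2 rose by 1.41 ± 0.23 in T790M tumours (adjusted p = 5.35e-05) and by 1.25 ± 0.24 in L858R tumours (adjusted p = 0.00028), and stood at 0.46 ± 0.23 in L858R+T790M tumours (adjusted p = 0.128).

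Ccne1 rose in all 3 genotypes. It read 7.71, 7.95, 7.89 and 7.86 in L858R tumours, against 7.72, 7.66, 7.39, 7.36 and 7.47 in mixed-strain normals. It read 7.89, 7.59, 7.70, 7.66 and 7.54 in L858R+T790M tumours and 7.70, 7.94, 7.54, 7.75 and 7.70 in T790M tumours, against 7.36, 7.43, 7.26, 7.42 and 7.67 in FVB normals. The groups overlapped in every comparison, with 3 of 4 L858R, 2 of 5 L858R+T790M and 4 of 5 T790M tumours above all matching normals. Ccne1 rose by 0.33 ± 0.10, 0.25 ± 0.09 and 0.30 ± 0.09 (adjusted p = 0.00885, 0.039 and 0.0127). The brightest probe set of E2f1 read 7.79, 8.35, 7.88 and 7.41 in L858R tumours, against 7.75, 7.52, 7.78, 7.84 and 7.90 in mixed-strain normals. It read 7.96, 7.31, 8.0, 7.85 and 7.80 in L858R+T790M tumours and 7.85, 7.40, 7.81, 8.03 and 8.05 in T790M tumours, against 7.76, 7.68, 7.87, 7.54 and 7.48 in FVB normals. Tumour and normal ranges overlapped throughout, with differences of 0.10 ± 0.16, 0.12 ± 0.15 and 0.16 ± 0.15 and no call (adjusted p = 0.662, 0.601 and 0.435). Another E2f1 probe set was called higher in L858R+T790M and in T790M tumours.

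Brca1, which acts at stalled forks and in repair by recombination, completes the list. Its brightest probe set read 6.66, 7.15, 6.80 and 7.12 in L858R tumours, against 6.66, 6.60, 6.74, 6.53 and 6.70 in mixed-strain normals, and rose by 0.29 ± 0.09 (adjusted p = 0.0151). It read 6.71, 6.86, 6.79, 6.68 and 6.50 in L858R+T790M tumours and 6.54, 6.84, 6.73, 6.79 and 6.63 in T790M tumours, against 6.68, 6.61, 6.64, 6.61 and 6.60 in FVB normals. These groups overlapped, with differences of 0.08 ± 0.09 and 0.08 ± 0.09.

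**Figure D2:**
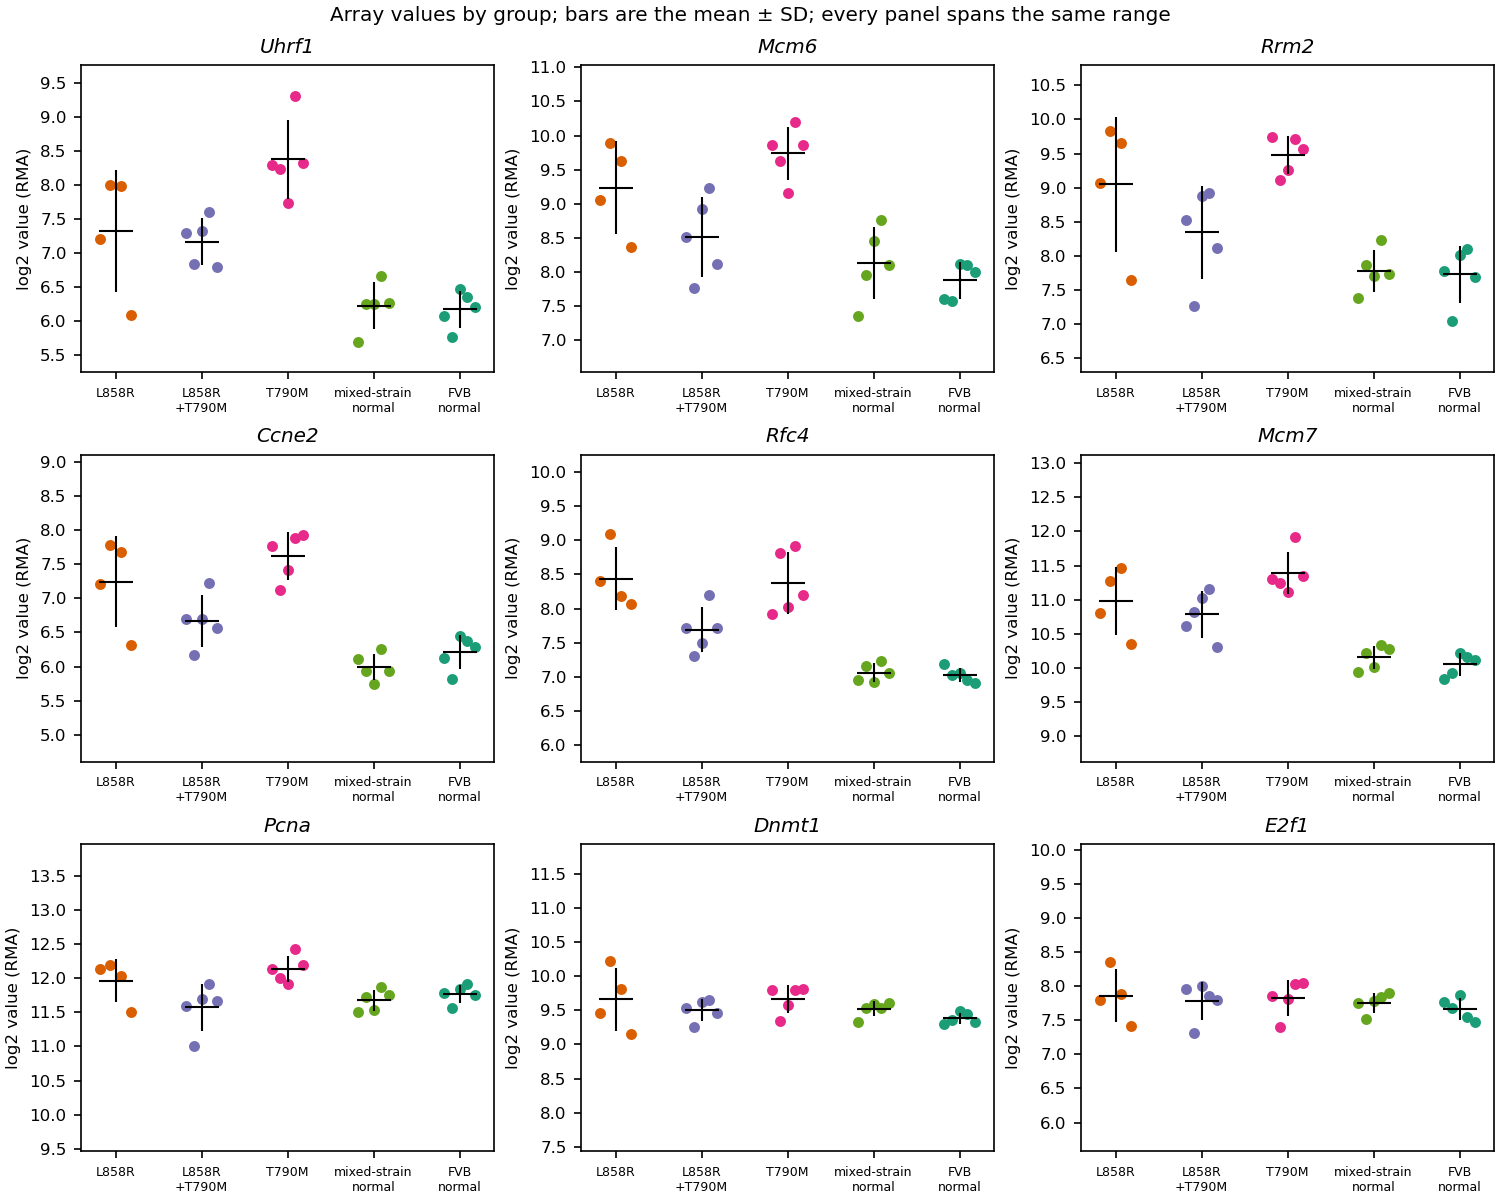
Log2 values of 9 replication genes on the 24 arrays by group, with 1 point per array and bars for the mean ± SD. Uhrf1, Mcm6 and Rrm2 separate T790M tumours from FVB normals, while E2f1, on its brightest probe set, overlaps in every comparison.

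Some of these calls rested on single arrays. In L858R tumours 17 of 24 calls held whichever array was left out. The other 7 (Orc6, Cdc6, Mcm2, Mcm5, Pole, Rpa2 and Brca1) were all lost without replicate 2, the highest tumour of its group for 28 genes, with adjusted p up to 0.177 over all arrays left out in turn. Leaving out replicate 3 also ended Cdc6, Mcm2, Mcm5 and Rpa2, and leaving out replicate 4 ended Brca1. Without replicate 1 and without mixed-strain normals 1, 2, 3 or 5 Mcm5 was lost, and without mixed-strain normals 1 or 3 Rpa2 was lost. In T790M tumours 27 of 29 calls held, and Pcna and Pola1 did not (Pola1 without replicate 4 or 5 or FVB normals 2 or 5, highest adjusted p = 0.0735). In L858R+T790M tumours 6 of 11 held (Mcm7, Rfc3, Rfc4, Rfc5, Tk1 and Uhrf1). There the count of 11 fell to 6 without replicate 4 or without FVB normal 2, and to 7 without replicate 3 or without FVB normal 1. Gins1 was lost without any of 9 of the 10 arrays, Ccne1 without 7, Orc6 without 5, and Cdt1 and Gins2 without 4.

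L858R+T790M and T790M tumours have the same strain label and were compared directly. Of the 41 replication genes, 7 were called lower in L858R+T790M tumours and 0 higher, against 0.824% of all genes called lower and 0.764% higher. The median of the 41 was -0.44, against 0.01 for all genes, and 29 of the 41 were lower at an unadjusted p under 0.05, where 8.83% of all genes were. The called genes were Mcm6 (-1.23 ± 0.30, adjusted p = 0.04), Uhrf1 (-1.21 ± 0.30, adjusted p = 0.0458), Ccne2 (-0.95 ± 0.23, adjusted p = 0.0382), Mcm2 (-0.88 ± 0.22, adjusted p = 0.0446), Mcm4 (-0.83 ± 0.20, adjusted p = 0.0358), Prim1 (-0.82 ± 0.19, adjusted p = 0.0332) and Dut (-0.73 ± 0.19, adjusted p = 0.0498). For the 2 of these not yet given in full, Mcm4 read 8.91, 8.22, 9.11, 9.29 and 8.90 in L858R+T790M tumours, against 9.62, 9.86, 9.44, 10.14 and 9.53 in T790M tumours, and Dut read 8.08, 8.20, 8.14, 8.48 and 7.55 against 8.52, 8.84, 8.62, 9.37 and 8.73. All L858R+T790M tumours lay below all T790M tumours for both.

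By role, the helicase gave 3 of the 7 calls, with a median of -0.91 over its 6 subunits, and all 6 had an unadjusted p under 0.05. The clamp, its loader and Rpa2 had a median of -0.53 with 5 of 5 at an unadjusted p under 0.05 and 0 called. Groups lay apart for 11 genes, all lower in L858R+T790M tumours, against 1.23% of all genes. These were Mcm2, Mcm3, Mcm4, Mcm5, Pole, Pcna, Rpa2, Rrm2, Tk1, Dut and Uhrf1. Of the genes of G1/S control other than Ccne2, Ccne1 stood at -0.05 ± 0.09 and E2f1 at -0.04 ± 0.15. The brightest probe sets of Brca1, Chaf1b and Prim2 stood at 0.00, -0.02 and -0.04.

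None of the 7 calls held against every array left out. The number of calls fell to 0 when L858R+T790M replicate 1 or 5 or T790M replicate 4 was left out, and was 2 without L858R+T790M replicate 2 or T790M replicates 1 or 5, 3 without L858R+T790M replicate 3, and 12 without L858R+T790M replicate 4. In a fit of these 2 groups alone 0 genes were called lower and 27 had an unadjusted p under 0.05 (adjusted p from 0.244 to 0.323 for the 7 genes). The direction did not turn for any of the 7 (for Mcm6 the difference ran from -1.41 to -1.04 over the arrays left out, and for Uhrf1 from -1.37 to -0.97).

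L858R tumours were compared with the other genotypes with each genotype first taken relative to its own normals. No replication gene was called in either comparison by limma. Against L858R+T790M tumours 13 of all genes were called (0.0715%), and 1735 of 18193 had an unadjusted p under 0.05, in either direction. The median of the 41 was 0.21, and 5 of them had an unadjusted p under 0.05. These were Slbp (0.50 ± 0.15), Rfc4 (0.72 ± 0.29), Ccne2 (0.79 ± 0.34), Pcna (0.48 ± 0.21) and Prim1 (0.62 ± 0.28), all higher in L858R tumours. Against T790M tumours 0.418% of all genes were called, and 2669 of 18193 had an unadjusted p under 0.05, in either direction. The median of the 41 was -0.18, and 4 replication genes had an unadjusted p under 0.05, all lower in L858R tumours. These were Uhrf1 (-1.11 ± 0.44), Tk1 (-0.67 ± 0.31), Lig1 (-0.58 ± 0.27) and Pola2 (-0.53 ± 0.18). The 6 helicase subunits ran from -0.75 to -0.36 in that comparison with unadjusted p above 0.05. The normal lungs of both strain labels differed for 0 replication genes, where 1.04% of all genes were called in limma. An unadjusted p under 0.05 was found for 2785 of all 18193 genes, in either direction, and for 5 replication genes (Cdc45 -0.18, Pola2 0.30, Fen1 -0.19, Tyms -0.26 and Slbp -0.25, mixed-strain minus FVB). Cdt1 and Cdc45 lay apart, lower in mixed-strain normals (4.31% of all genes lay apart and lower).

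The level of the whole list differed between tumours of one genotype by more than between normal lungs. The mean of the 41 genes was 8.42, 8.90, 8.73 and 8.04 in L858R tumours, against 7.89 to 8.08 in mixed-strain normals. It was 8.29, 8.04, 8.40, 8.53 and 8.14 in L858R+T790M tumours and 8.74, 8.68, 8.53, 9.15 and 8.78 in T790M tumours, against 7.87 to 8.10 in FVB normals. L858R replicate 4 and L858R+T790M replicate 2 lay within the range of the normal lungs, and all T790M tumours lay above it. The median SD over the 41 genes was 0.42 among L858R, 0.27 among L858R+T790M and 0.28 among T790M tumours, against 0.14 among mixed-strain and 0.13 among FVB normals.

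Single tumours led or trailed for most of the list at once. T790M replicate 4 was the highest T790M tumour for 31 of 41 genes and the highest of all 24 arrays for 24. L858R replicate 2 was the highest of its group for 28 genes, and L858R replicate 4 the lowest for 34. L858R+T790M replicate 4 was the highest of its group for 24 genes and replicate 2 the lowest for 23. Of the 41 genes, each T790M tumour lay above all FVB normals for 31 to 40 and each L858R+T790M tumour for 15 to 33, and each L858R tumour lay above all mixed-strain normals for 18 to 38.

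**Figure D3:**
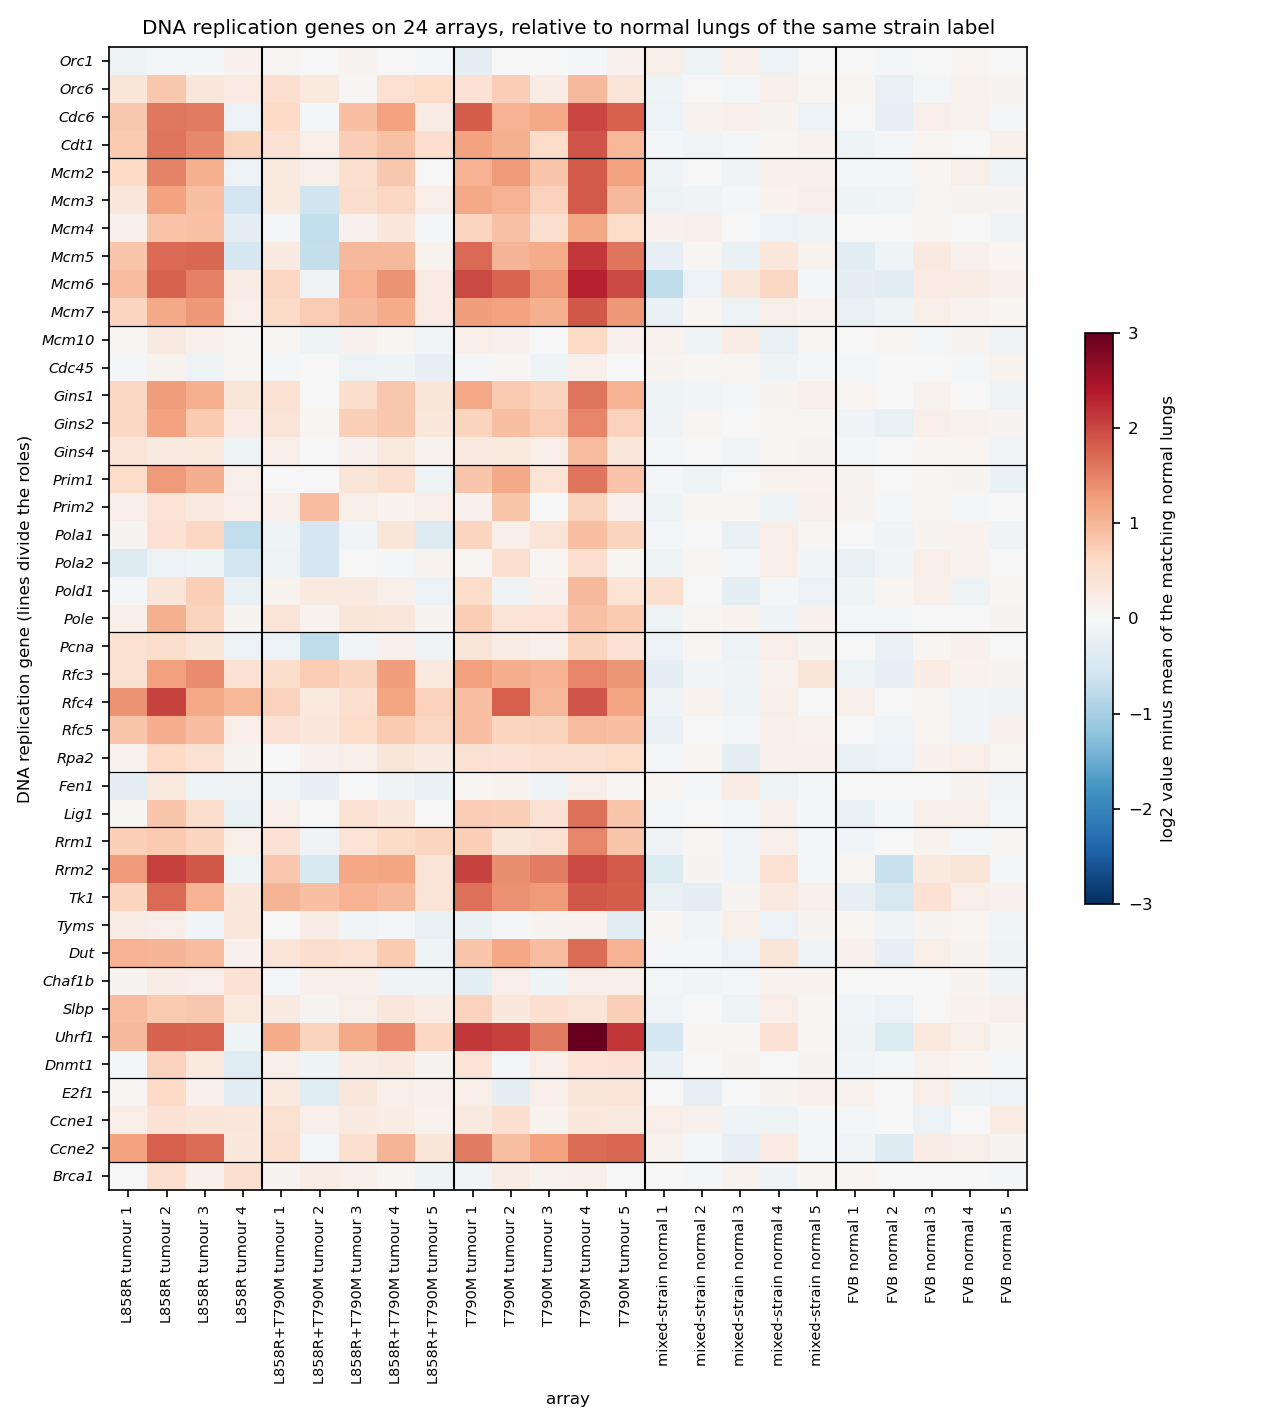
Heat map of the 41 replication genes (rows, by role) on 24 arrays (columns, by group), coloured by the log2 value minus the mean of the normal lungs with the same strain label. L858R replicate 4 and L858R+T790M replicate 2 are pale or blue for most genes, though red for some (such as Rfc4 and Cdt1 in L858R replicate 4, Tk1 and Prim2 in L858R+T790M replicate 2), and T790M replicate 4 is the darkest column.

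Mitosis genes, from a list of 27 of which 26 were measured, were higher in tumours too. In L858R tumours 23 of 26 were called higher, in T790M tumours 22, and in L858R+T790M tumours 9, with 0 lower in each and medians of 1.09, 1.21 and 0.53. Of all genes 23.3%, 21.9% and 20.2% were called higher in the same order. The largest in T790M tumours were the mitotic kinase Cdk1 (2.09 ± 0.33), Birc5 (1.82 ± 0.34), Ube2c (1.81 ± 0.42) and Top2a (1.69 ± 0.35), and in L858R tumours Birc5 (1.77 ± 0.36), Cdk1 (1.70 ± 0.35), Ube2c (1.49 ± 0.45) and Mki67 (1.48 ± 0.39). In L858R+T790M tumours the kinesin Kif23 (0.95 ± 0.23), Mki67 (0.94 ± 0.36), Cdk1 (0.93 ± 0.33) and Kif20a (0.77 ± 0.28) led. Between L858R+T790M and T790M tumours 0 mitosis genes were called by limma, with a median of -0.66 and 19 at an unadjusted p under 0.05. Of all 18193 genes, 3103 passed that threshold, in either direction.

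The mitosis mean was 8.81, 8.12, 8.18 and 7.35 in L858R tumours, against 6.82 to 7.28 in mixed-strain normals. It was 7.49, 7.0, 7.82, 8.07 and 7.35 in L858R+T790M tumours and 7.94, 8.11, 7.91, 8.83 and 8.09 in T790M tumours, against 6.87 to 7.19 in FVB normals. L858R replicate 1 had a mitosis mean of 8.81, close to the 8.83 of T790M replicate 4, with a replication mean of 8.42 against 9.15 there.

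**Figure D4:**
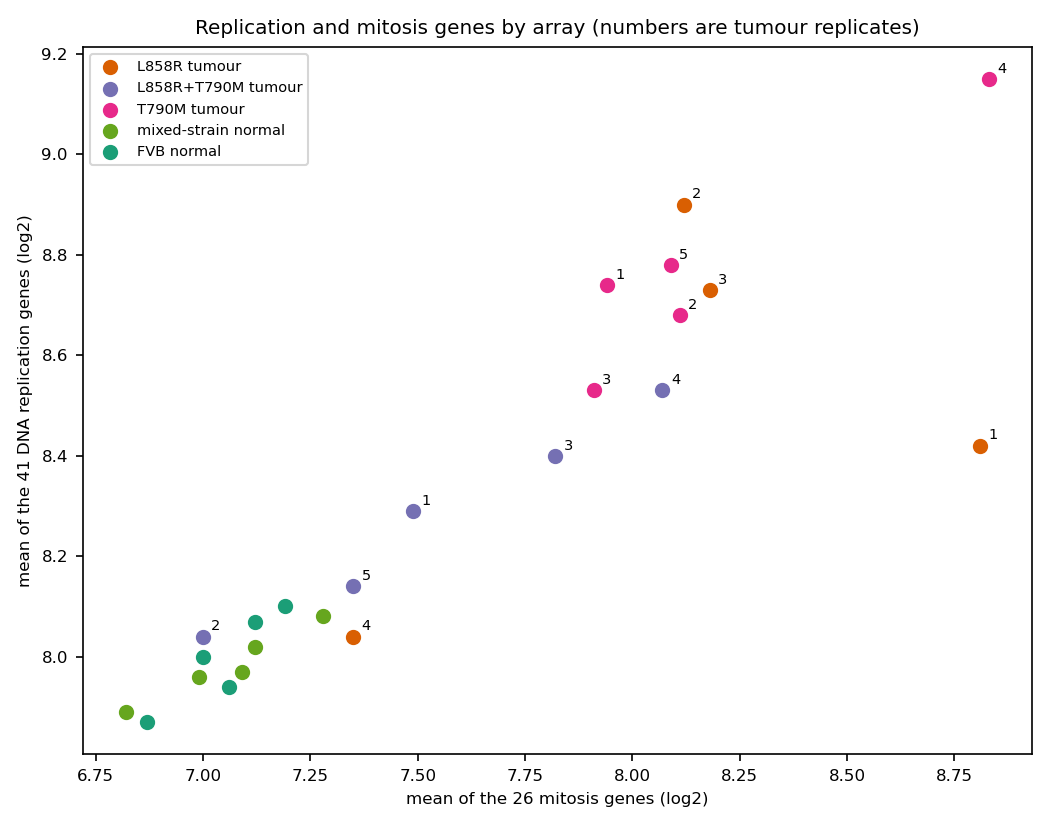
Mean log2 value of the 41 replication genes (vertical) against that of 26 mitosis genes (horizontal), 1 point per array, with replicate numbers beside the tumours. Most arrays follow a rising line, and L858R replicate 1 lies to the right of it, at 8.81 and 8.42.

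Further replication genes outside the list, 47 measured of 48, gave 31 higher and 1 lower in T790M tumours, 24 and 2 in L858R tumours, and 13 and 2 in L858R+T790M tumours. The shares of all genes called higher were 21.9%, 23.3% and 20.2%. Dscc1, part of an alternative clamp loader, rose by 1.82 ± 0.38 in T790M and 1.18 ± 0.40 in L858R tumours. The checkpoint kinase Chek1 rose by 1.49 ± 0.26 and 1.10 ± 0.28, Dbf4, the activator of the origin-firing kinase Cdc7, by 1.07 ± 0.19 and 1.17 ± 0.20, and Esco2, a cohesin acetyltransferase, by 0.96 ± 0.16 and 1.01 ± 0.17, in the same order. Rrm2b, the ribonucleotide reductase subunit used outside S phase, fell by 0.34 in L858R, 0.32 in L858R+T790M and 0.30 in T790M tumours. Timeless, of the fork protection complex, fell by 0.70 in L858R and 0.67 in L858R+T790M tumours. Against T790M tumours 4 fell in L858R+T790M tumours, namely Dscc1 (-1.48 ± 0.38), Atad2 (-0.87 ± 0.20), Pold2 (-0.67 ± 0.15) and Chtf18 (-0.38 ± 0.09), each lost when T790M replicate 4, or L858R+T790M replicate 1 or 5, was left out (adjusted p up to 0.124, for Dscc1). In a fit of these 2 groups alone none of the 4 was called (adjusted p = 0.323, 0.266, 0.244 and 0.292).

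Regulators of G1/S, 31 genes, split in every genotype, with 13 higher and 9 lower in L858R, 10 and 11 in L858R+T790M, and 10 and 10 in T790M tumours. Named by size, the called genes were led in T790M tumours by Ccnd2, a D cyclin (-1.36 ± 0.30), Lin9, of the DREAM and MYB-MuvB complexes (1.24 ± 0.25), Cdk4 (1.16 ± 0.17) and Myc (1.13 ± 0.13). In L858R tumours they were Cdkn1a (1.54 ± 0.17), the CDK inhibitor Cdkn1c (-1.27 ± 0.26), Myc (1.15 ± 0.14) and Cdk6 (-1.13 ± 0.30). In L858R+T790M tumours they were Cdkn1c (-1.17 ± 0.24), Myc (1.13 ± 0.13), Cdkn1a (1.09 ± 0.16) and the CDK inhibitor Cdkn2c (-1.02 ± 0.28). Between L858R+T790M and T790M tumours 3 of the 31 genes were called, all CDK inhibitors and all higher in L858R+T790M tumours. The other listed CDK inhibitors, Cdkn1b, Cdkn1c, Cdkn2c and Cdkn2d, were not called. Cdkn2b read 10.78, 10.66, 10.36, 10.46 and 11.28 in L858R+T790M tumours, against 9.49, 9.84, 9.82, 8.98 and 9.65 in T790M tumours, with no overlap (1.15 ± 0.16, adjusted p = 0.00118). Cdkn1a read 12.02, 11.60, 11.96, 11.99 and 12.11 in L858R+T790M tumours, against 11.35, 11.27, 10.82, 11.36 and 11.05 in T790M tumours (0.77 ± 0.16, adjusted p = 0.017). Cdkn2a, near the low end of the scale, read 5.98, 6.29, 5.75, 5.95 and 5.66 in L858R+T790M tumours, against 5.10, 5.02, 5.42, 5.64 and 5.41 in T790M tumours. It differed by 0.61 ± 0.14 (adjusted p = 0.0352). The Cdkn2b call held without each of the 10 arrays in turn, while Cdkn1a was lost without L858R+T790M replicate 1 (adjusted p = 0.0597) and Cdkn2a without L858R+T790M replicates 1, 2 or 4 or T790M replicates 1 or 2 (up to 0.103). In a fit of these 2 groups alone none of the 3 was called (adjusted p = 0.213, 0.213 and 0.263). In L858R tumours Cdkn2b read 10.51, 10.76, 10.31 and 10.58, against 10.44, 10.48, 10.44, 10.40 and 10.72 in mixed-strain normals. It read 10.03, 9.94, 9.98, 9.70 and 9.79 in FVB normals. Cdkn1a read 11.99, 11.49, 11.26 and 12.03 in L858R tumours, against 10.01, 10.48, 10.19, 10.18 and 9.89 in mixed-strain normals. In FVB normals it read 11.08, 10.98, 10.41, 10.95 and 10.81. The part of these inhibitors in the replication result was not tested. Cdkn1a also exceeded the T790M difference in L858R tumours after subtraction of the normals (1.22 ± 0.23, adjusted p = 0.018), and the normals differed for it (mixed-strain minus FVB, -0.70 ± 0.16).

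For several genes whose brightest probe set was not called, another probe set was. The 41 genes had 93 probe sets, several for 32 genes. In a fit over all 34945 probe sets with 1 gene, 67 of the 93 were higher in T790M, 52 in L858R and 25 in L858R+T790M tumours. Counting a gene when any of its probe sets was called, 37 genes were higher in T790M, 31 in L858R and 19 in L858R+T790M tumours. A gene with several probe sets has more chances of a call in such a count. No share over all probe sets, or over all genes counted in this way, stands beside these numbers, so they are not set against a background. For 9 genes in T790M tumours the brightest probe set was not called while a dimmer one was higher. Fen1 gave 0.07 ± 0.09 on its brightest and 1.69 ± 0.18 on its other probe set (adjusted p over all probe sets = 0.604 and 5.28e-07). Chaf1b gave 0.03 ± 0.09 and 1.23 ± 0.20, Cdc45 0.00 ± 0.07 and 0.90 ± 0.16, and Orc1 -0.04 ± 0.08 and 0.46 ± 0.10. Brca1 gave 0.08 ± 0.09 on the brightest and 1.38 ± 0.24, 0.84 ± 0.19 and 0.86 ± 0.20 on the others. One of the dimmer E2f1 probe sets gave 0.43 ± 0.13 in T790M tumours (adjusted p = 0.0142) and the other 0.23 ± 0.10. Prim2, Pola2 and Tyms also had a dimmer probe set called higher.

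The same held in the other genotypes. In L858R tumours the brightest probe set was not called and another was higher for 7 genes (Orc1, Mcm3, Cdc45, Prim2, Fen1, Tyms and Chaf1b), with 1.04 ± 0.19 for the dimmer Fen1 and 1.09 ± 0.21 for the dimmer Chaf1b probe set. In L858R+T790M tumours this was so for 8 genes (Orc1, Prim2, Pola2, Rpa2, Fen1, Chaf1b, Slbp and E2f1), with 0.91 ± 0.18 for Fen1 and 0.80 ± 0.16 for Prim2. Uhrf1 and Mcm6 agreed in direction across their probe sets in T790M tumours, at 2.20 ± 0.30 and 1.46 ± 0.19 for Uhrf1 and 1.86 ± 0.30, 2.12 ± 0.33 and 0.30 ± 0.09 for Mcm6. Between L858R+T790M and T790M tumours 12 of the 93 probe sets, of 9 genes, were lower and 0 higher, among them both Uhrf1 probe sets (-1.21 ± 0.30 and -0.97 ± 0.19). The share of all probe sets is not given for this count either.

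**Figure D5:**
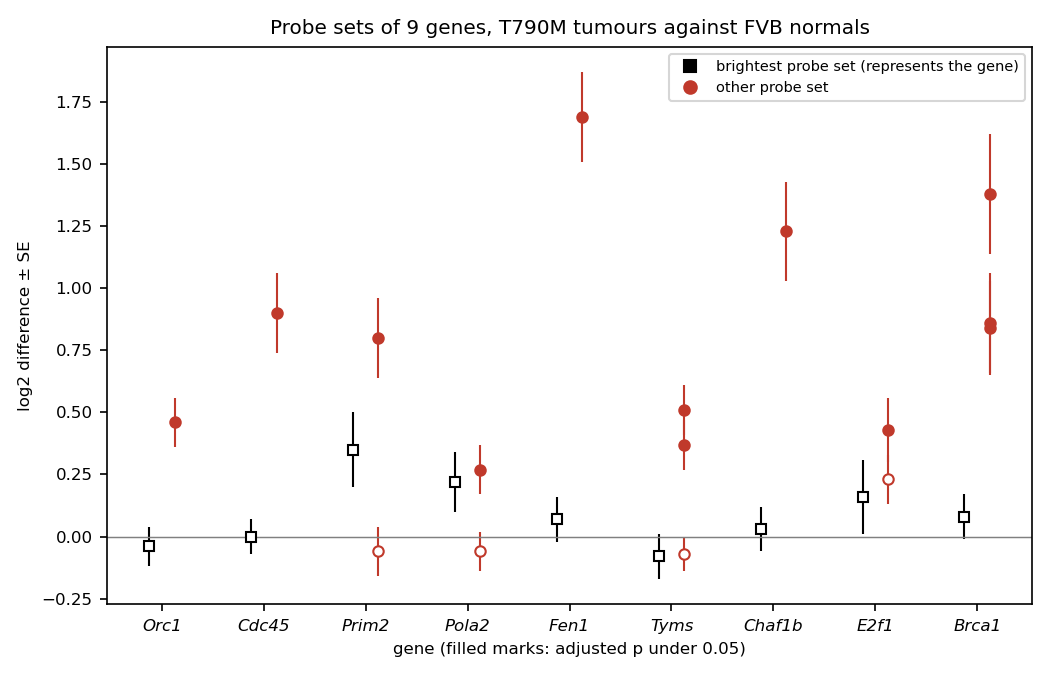
Log2 difference ± SE between T790M tumours and FVB normals for every probe set of the 9 genes whose brightest probe set was not called while another was, with filled marks where the adjusted p over all probe sets was under 0.05. The dimmer Fen1 probe set reaches 1.69 beside 0.07 for the brightest.

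Markers of several cell types differed between tumours and normal lung too, as RNA levels of whole samples and not as cell counts. Mean levels of 11 alveolar type 2 markers, which mark the surfactant-making epithelium, were 12.97 to 13.43 over the tumours and 12.46 to 12.68 over the normal lungs. The group means of 10 of these markers lay between 10.90 and 14.85, and that of Nkx2-1, a transcription factor of this epithelium, was 8.91 in L858R, 8.36 in L858R+T790M and 8.18 in T790M tumours, against 7.97 in mixed-strain and 7.27 in FVB normals, where it was near the array median. The mean of 10 endothelial markers was 9.15 to 10.36 in L858R, 8.56 to 10.73 in L858R+T790M and 8.41 to 11.07 in T790M tumours, against 12.04 to 12.17 in mixed-strain and 11.73 to 12.33 in FVB normals. Of these markers 10 were called lower in L858R, 10 in L858R+T790M and 9 in T790M tumours. In the same order 5, 6 and 6 of 7 T cell markers were called lower, and 6, 1 and 0 of 9 macrophage markers higher, with 1, 0 and 1 lower. Between L858R+T790M and T790M tumours 0 alveolar, endothelial, T cell or B cell markers were called by limma, with 2 of them at an unadjusted p under 0.05, and of the 9 macrophage markers Marco was higher (2.85 ± 0.52, adjusted p = 0.00882), a call that was lost in a fit of these 2 groups alone (adjusted p = 0.239). The 3′ minus 5′ signal of Actb, a sign of RNA quality, was 0.40 to 0.56 in L858R, 0.44 to 0.65 in L858R+T790M and 0.44 to 0.63 in T790M tumours, against 0.37 to 0.50 in mixed-strain and 0.39 to 0.60 in FVB normals. That of Gapdh was -0.24 to -0.07 in L858R, -0.19 to -0.03 in L858R+T790M and -0.26 to -0.11 in T790M tumours, against -0.31 to -0.22 in mixed-strain and -0.20 to -0.08 in FVB normals, so that 3 of 4 L858R tumours lay above all mixed-strain normals for it. The part of cell makeup and of RNA quality in the replication differences was not tested.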

How the data were processed

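Total RNA from 24 mouse lung samples was measured on Affymetrix whole-genome mouse expression arrays, 1 per sample. The deposited values are on a log2 scale and came from RMA, per the labels and the submitters' processing notes, whose version is not given in the sources used here. RMA corrects background, normalises arrays to each other and summarises probes, so it gives no absolute amount and can compress the differences of dim probe sets. Array medians ran from 7.21 to 7.34. Of 45101 probe sets, 64 were controls, 34945 were annotated to 1 gene, 932 to several and 9160 to none. The platform annotation can be old, and probe sets with several genes were not used.

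From these values the brightest probe set of each of 18193 genes was taken. limma 3.58.1 in R 4.3.3 was fitted to the means of the 5 groups, leaving 19 residual degrees of freedom, and variances were moderated by eBayes with its trend option. P-values were adjusted over all genes by the Benjamini-Hochberg method, and the 7 comparisons were each adjusted on their own. Tumours were set against normal lungs of the same strain label. L858R tumours were set against the other tumours as a difference of differences. On simulated data with the T790M design on 18193 genes, 95 of 100 genes changed by log2 1 and 97 of 100 changed by log2 2 were called, with 13 of 205 calls on unchanged genes. The simulated noise was independent between genes, and only 100 genes of each size were changed. In the data 21.9% of all genes were called higher in T790M tumours, and single tumours led or trailed for most of the list. The simulated rates may therefore not hold for these data. Python 3.11.15 with pandas 2.3.3 and matplotlib 3.10.9 made the summaries and plots.

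The members and all gene lists were chosen with earlier results of these data known. Values on every array were given, for each comparison, for the 8 members with the largest difference, those with the smallest in each direction, and E2f1, Ccne1 and Ccne2. Of the companion lists up to 4 called genes were named by size, with members that moved against their list. The alternatives covered scaling, probe set choice, dim genes, array weights, the groups in the fit, the replicate number as a block, thresholds, the normals used and leaving out arrays. The number of arrays limits the precision.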

Additional observations from a re-analysis of the deposited data

Results flagged for a closer look

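For 8 values 1 array lay far from the rest of its group, among 205 groups of values examined, where chance alone gives about 1 in 20. Dut, which removes dUTP, read 7.66 in L858R replicate 4, against 8.48 to 8.59 in the other L858R tumours. Gins2 read 9.01 and Gins4 9.93 in T790M replicate 4, against 8.21 to 8.44 and 9.19 to 9.33 in the other T790M tumours, and these genes encode subunits of the same helicase activator. In L858R+T790M tumours Prim2 read 9.18 in replicate 2, against 8.37 to 8.46, and E2f1 read 7.31 in the same array, against 7.80 to 8.0. Thymidine kinase Tk1 read 7.94 in L858R+T790M replicate 5, against 8.47 to 8.60. Among normal lungs Dut read 7.90 in mixed-strain normal 4, against 7.36 to 7.51, and Dnmt1 9.33 in mixed-strain normal 1, against 9.54 to 9.61.

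Between tumour genotypes 7 genes were called by the test of the difference itself, all lower in L858R+T790M than in T790M tumours. None of these calls held against every array left out, or in a fit of these 2 groups alone. The log2 differences were -0.88 for Mcm2, -0.83 for Mcm4, -1.23 for Mcm6, -0.82 for Prim1, -0.73 for Dut, -1.21 for Uhrf1 and -0.95 for Ccne2. Pola2 was lower than the mean of the normals in every L858R tumour (mean -0.31) and higher in every T790M tumour (mean 0.22), a difference of -0.53 that was not called after subtraction of the normals (limma, adjusted p = 0.179).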

How the results depend on the processing

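The T790M count of 29 higher genes stayed between 27 and 31 whichever array was left out, and was 29 with each array centred on its median and 34 with the median over a gene's probe sets. It fell to 15 when a 2-fold change was also required. The L858R count of 24 ran from 17 to 27 over the arrays left out, with 6 at 2-fold, and the fit of the compared groups alone called 1 gene lower, Pola2. The L858R+T790M count of 11 was the less stable one, with 20 under array weights, 17 against all 10 normal lungs, 4 at an adjusted p under 0.01, 0 at 2-fold and 6 to 15 over the arrays left out. Counting any probe set gave 19 there, with no share of all genes counted in the same way. Leaving out replicates 1 and 5 together, chosen after seeing the data, gave 8.

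The 7 genes lower in L858R+T790M than in T790M tumours became 4 under array weights, 2 at 2-fold and 0 at an adjusted p under 0.01 or with the compared groups alone, and 0 to 12 over the arrays left out. Without L858R+T790M replicate 2 and T790M replicate 4 together, also chosen after seeing the data, the count was 0 by limma, with 21 genes at an unadjusted p under 0.05. With the replicate number as a block it was 0, with 27 at an unadjusted p under 0.05 and adjusted p of 0.0565 to 0.0747 for the 7 genes, and the calls of Dscc1 (adjusted p = 0.0784), Atad2 (0.0513) and Cdkn2a (0.0528) were lost too. The numbers pair no samples by the labels, and 46 same-numbered pairs of arrays correlated at -0.284 to 0.44 (median 0.02, 11 over 0.1), with 6 of 24 arrays closest to their own number. Between L858R+T790M and T790M tumours alone, 4 of 5 same-numbered pairs were over 0.1 (0.003 to 0.44).

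Mixed-strain against FVB normals gave 1 higher and 4 lower under array weights, and 1 higher and 2 lower with these groups alone, in place of 0. The median over probe sets turned 5 values, Cdc45 (0.27) and Fen1 (0.49) in L858R, Fen1 (0.39) in L858R+T790M, and Orc1 (0.21) and Tyms (0.34) in T790M tumours, and here the brightest probe set differed from the dimmer ones. The causes of the other moves were not tested.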
